A study of Mus musculus with 6 samples.

Results

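Proteasome genes were taken as all listed genes whose symbol begins with Psm followed by a letter from a to g and a number, leaving out pseudogene symbols and the interferon-induced catalytic subunits Psmb8, Psmb9 and Psmb10. The rule gave 46 of 25939 listed genes. By role they were 8 alpha ring genes, 7 beta ring genes, 6 ATPase genes, 11 non-ATPase genes of the regulatory cap, 6 activator or inhibitor genes and 7 assembly chaperone genes. The remaining member, Psmc3ip, codes for a meiotic recombination factor and entered by its name alone. The measurements came from vascular smooth muscle cells grown from mouse aorta and given trimethylamine N-oxide (TMAO), a metabolite made by the liver from a product of gut bacteria, for 48 h, or control treatment. Each group had 3 libraries. The sources used here do not give the strain, sex or age of the mice, the dose of TMAO or the composition of the control treatment. They also leave unstated whether a group's 3 samples were separate cultures or animals, so each p-value speaks only for the spread among these libraries, which could be technical.

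The proteasome degrades proteins that carry ubiquitin chains. Its core particle is a barrel of outer alpha rings, which gate the entrance, and inner beta rings, which hold the active sites facing a closed chamber. A regulatory cap docks on the barrel, where receptors bind ubiquitin, a deubiquitinase removes it and a ring of ATPases unfolds the substrate and threads it inside. Other caps of the PA28 and PA200 families open the gate without ATP. When proteasome activity falls short, the transcription factor NFE2L1 raises most subunit genes together, binding the antioxidant response element with small Maf partners. In muscle cells the particle clears damaged and misfolded proteins and sets the turnover of regulators of the cell cycle and of signalling.

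Because members of a complex may share regulatory sequence, promoters were searched for the core of the antioxidant response element, TGACNNNGC, and for the CCAAT box, bound by the factor NF-Y, on both strands. Of the 46 members 38 matched a RefSeq promoter of build GRCm38.p6, which runs from 250 bases before to 50 bases after the start site. The core element occurred in 6 of these 38 genes (15.8%, Wilson 95% interval 7.44% to 30.4%), against 14.0% of 27025 genes in the same table. The longer form TGACTCAGC occurred in 0 of 38, which allows a share of up to 9.18% (Wilson), against 0.503% of all genes. CCAAT occurred in 13 of 38 members (34.2%, Wilson 95% interval 21.2% to 50.1%) and in 41.1% of all genes. The share of all genes lay inside the members' interval for each of these, and a match describes letters, not binding. The promoters of a pair of beta ring genes and of a pair of ATPase genes are printed below because these 4 genes recur in the results. Capitals mark TGACNNNGC or CCAAT in either orientation. Psmb5 lies at chr14:54617946-54618245 on the minus strand, with the core element starting 47 bases before the start site. Psmb6 lies at chr11:70525107-70525406 on the plus strand, with the core element 9 bases before the start. Psmc1 lies at chr12:100109952-100110251 on the plus strand, with CCAAT 175 bases before the start. Psmc6 lies at chr14:45329574-45329873 on the plus strand, with the core element in reverse orientation 227 bases before the start.
Psmb5: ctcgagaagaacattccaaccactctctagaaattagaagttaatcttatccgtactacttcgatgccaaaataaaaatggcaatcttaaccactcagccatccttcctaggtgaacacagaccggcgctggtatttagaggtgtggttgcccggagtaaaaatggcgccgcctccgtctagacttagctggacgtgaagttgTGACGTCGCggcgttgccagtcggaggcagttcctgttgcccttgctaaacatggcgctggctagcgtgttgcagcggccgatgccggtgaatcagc
Psmb6: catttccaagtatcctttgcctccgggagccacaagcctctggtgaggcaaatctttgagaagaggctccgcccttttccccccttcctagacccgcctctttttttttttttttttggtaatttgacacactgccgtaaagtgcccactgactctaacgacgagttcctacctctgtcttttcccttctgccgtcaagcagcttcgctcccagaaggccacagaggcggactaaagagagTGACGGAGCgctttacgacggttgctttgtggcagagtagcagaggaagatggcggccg
Psmc1: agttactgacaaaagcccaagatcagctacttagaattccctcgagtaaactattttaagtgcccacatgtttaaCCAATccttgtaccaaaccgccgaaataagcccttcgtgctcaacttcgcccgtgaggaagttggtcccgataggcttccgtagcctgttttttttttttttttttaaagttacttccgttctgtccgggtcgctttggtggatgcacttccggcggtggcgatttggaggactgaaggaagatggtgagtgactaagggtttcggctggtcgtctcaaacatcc
Psmc6: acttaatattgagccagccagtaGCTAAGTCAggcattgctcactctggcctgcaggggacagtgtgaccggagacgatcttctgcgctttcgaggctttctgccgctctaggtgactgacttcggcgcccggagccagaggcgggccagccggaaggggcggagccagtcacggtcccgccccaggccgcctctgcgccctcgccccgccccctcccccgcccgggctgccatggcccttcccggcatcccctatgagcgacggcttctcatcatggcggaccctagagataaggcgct

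Library totals recovered from the deposited values ranged from 14991252 to 16524834 reads in TMAO and from 15015258 to 16806728 reads in Control. Acta2, which codes for smooth muscle actin, averaged 483 ± 8.68 FPKM in TMAO and 487 ± 2.79 FPKM in Control (SD, n = 3 each). The 9 smooth muscle markers summed to 593 to 613 FPKM in TMAO and 610.5 to 615 FPKM in Control, and 6 of 9 averaged 1 FPKM or more, with Myl9 next to Acta2 at 94.7 ± 2.04 FPKM in TMAO and 99.1 ± 0.433 FPKM in Control. The other 3, the contractile genes Myh11, Tagln and Cnn1, averaged under 1 FPKM in both groups. Macrophage markers summed to 9.98 to 11.1 FPKM in TMAO and 8.97 to 13.0 FPKM in Control, with 2 of 6 at 1 FPKM or more. Stromal markers summed to 439.6 to 473 FPKM in TMAO and 439 to 482 FPKM in Control, with 4 of 6 at 1 FPKM or more. Most of the stromal sum was Ly6a, at 410.0 ± 18.9 FPKM in TMAO and 415 ± 23.2 FPKM in Control. None of the 5 endothelial markers listed, of 6, and neither of the 2 lymphocyte markers listed, of 5, averaged 1 FPKM. Some measures of library composition differed between the groups without overlap. Malat1, a nuclear RNA, stood at 217.6, 153.1 and 183.3 FPKM in TMAO 1 to 3 and at 75.0, 112.9 and 84.4 FPKM in Control 1 to 3. A set of 709 weakly read genes nested in stronger genes of the same orientation took 174.8, 133.3 and 151.4 RPM (reads scaled to library size) in TMAO and 78.2, 99.5 and 85.3 RPM in Control, and mitochondrial transcripts took 6.36% to 6.64% of reads in TMAO and 7.23% to 7.84% in Control. In bulk RNA, a change in the number of cells of a type and a change in RNA per cell cannot be told apart. The part of these measures in the values that follow was not tested.

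In these cells the proteasome genes were strongly expressed, and none passed the test for a difference between TMAO and Control. Levels are given in FPKM, a fragment count divided by exon length and by library size. A gene was tested when 3 or more libraries reached 1 FPKM, which 43 members did, with 162 to 8376 reads in each library. Their median level exceeded that of 91.7% of all 11062 tested genes. With limma on log2(FPKM + 1), 0 of 43 members had an adjusted p of at most 0.05, against a background of 0.181% of all tested genes (0.0723% higher and 0.108% lower in TMAO). Voom on recovered reads also called 0, and 9 of 43 (20.9%) had an unadjusted p under 0.05 with limma, beside 13.1% of all tested genes. With median-ratio scaling this count was 5 of 43 (11.6%), beside 12.7% of all tested genes. The median log2 fold change of the tested members was 0.018, beside 0.025 for all tested genes. It was 0.049 without TMAO replicate 1, beside 0.012 for all genes, and -0.021 with median-ratio scaling, beside -0.009. The log2 fold change was above 0 for 30 of 43 members (69.8%) and for 60% of all tested genes. The size of a log2 fold change was below 0.1 for 31 members, and the 95% interval lay within 0.3 of zero on the log2 scale for 41 of 43. The median spread between replicates, as a within-group SD of log2 values, was 0.062 for the members and 0.073 for 5564 other genes between 5.32 and 199 FPKM, the range of the tested members. Only this range was matched, not the level within it, so these SDs do not compare genes of equal level.

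At an unadjusted p under 0.05 there were 7 members higher in TMAO (16.3%), where the background is 8.61%, and 2 members lower (4.65%), where the background is 4.48%. A filter of 5 FPKM kept all 43 members with the same counts. Over the 6141 genes passing it the background is 9.67% higher, 6.24% lower and 15.9% in either direction. With median-ratio scaling 2 members were higher (4.65%, background 5.23%) and 3 lower (6.98%, background 7.51%), so the share above background did not hold under that scaling. Over the other alternatives the members' share at an unadjusted p under 0.05, in either direction, ran from 14% to 25.6%. The lowest was without Control replicate 1 (6 members, background 10.7%). The highest, with 11 members, was without TMAO replicate 1 (background 11.5%) and with quantile normalization (background 14%). The 3 TMAO values exceeded every Control value for 8 members (18.6%), beside 12.4% of all tested genes, and were under every Control value for 3 members (6.98%), beside 6.23%. The members above were Psmc1, Psmc2, Psmc3, Psmb5, Psmb6, Psmd4, Psmd7 and Psmd8. Those below were Psmc6, Psma1 and Psmd5. Here and in what follows, overlap of levels was judged on FPKM as deposited and was not recounted with median-ratio scaling. The size factors of that scaling were 1.0493, 0.9906 and 1.0109 in TMAO 1 to 3. In Control 1 to 3 they were 0.9806, 1.0021 and 0.9843. Division by them lowers TMAO 1 and raises Control 1 and 3. Psmb5 in TMAO 1 would then lie under Control 3, so the lack of overlap depends on scaling. The differences between these shares and the background were not tested, since the members share the same 6 libraries and are not replicates. The direction counts also depend on scaling. With median-ratio scaling the log2 fold change was above 0 for 0 of 7 alpha ring genes, 4 of 7 beta ring genes, 5 of 6 ATPase genes, 3 of 11 non-ATPase genes, 3 of 5 activator or inhibitor genes and 1 of 6 assembly chaperones.

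**Figure D1:**
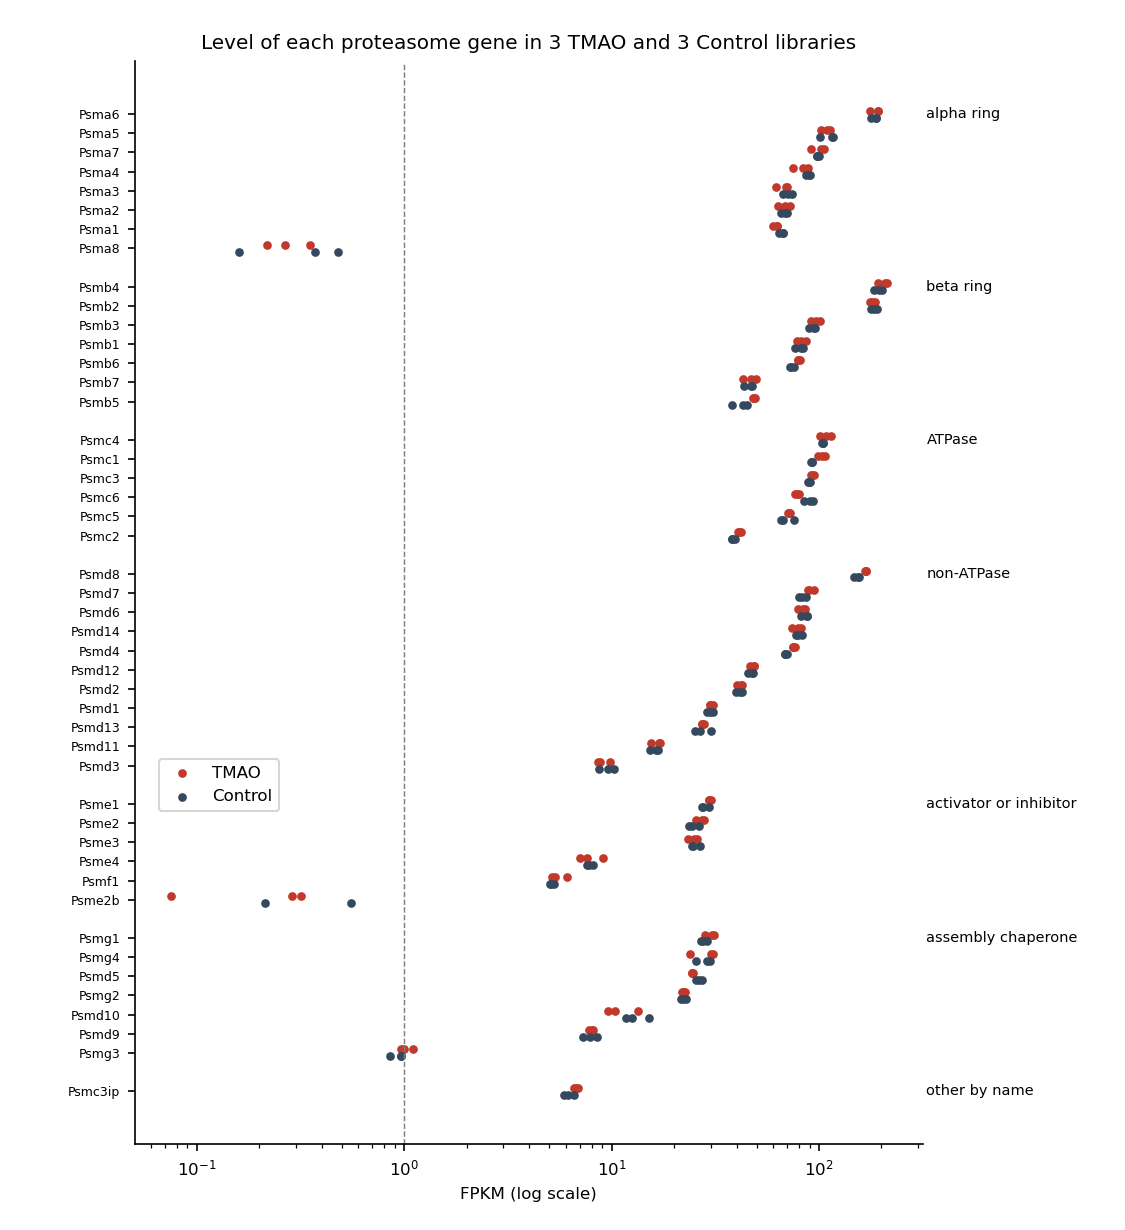
Level of each of the 46 members in FPKM on a log axis, grouped by role, with the 3 TMAO libraries in red and the 3 Control libraries in dark blue. The dashed line marks 1 FPKM, and a value of 0 (Psme2b in Control 1) cannot be drawn. Tested core and cap subunits span 9.29 to 199 FPKM in the mean of all libraries, while Psma8, Psme2b and Psmg3 lie near or under 1 FPKM, and the spread between libraries is small beside the differences between genes.

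The alpha ring gates the barrel, and none of its genes passed the test. Of the 7 tested members, 2 had a log2 fold change above 0 and 5 below, with a median of -0.04. Summed over the ring, the level was 629, 704 and 689.6 FPKM in TMAO 1 to 3, against 704, 663 and 699.8 FPKM in Control 1 to 3, and the groups overlapped. TMAO 1 was the lowest TMAO library for 7 of these 7 genes and for 29 of all 43 tested members. It also had the highest Malat1 value and the most reads in weak nested genes. A link between these measures and the alpha ring values was not tested. How often TMAO 1 was the lowest TMAO library over all tested genes was not counted. The median log2 fold change of the alpha ring was -0.000 without TMAO replicate 1 and -0.106 without Control replicate 2.

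Psma1, which codes for subunit alpha6, had the smallest p in the ring. It stood at 60.2, 62.4 and 63.0 FPKM in TMAO and at 66.8, 64.2 and 67.3 FPKM in Control, so every TMAO library was below every Control library. Its log2 fold change was -0.09 ± 0.043 (SE, limma adjusted p = 0.385; ENSMUSG00000030751, chromosome 7, 114264606 to 114276118, minus strand of mm10). Psma6 (alpha1) was the highest of the ring at 187 ± 9.53 FPKM in TMAO and 185 ± 5.68 FPKM in Control. Psma5 (alpha5) followed at 108 ± 5.62 FPKM in TMAO and 111 ± 8.54 FPKM in Control, overlapping in level with Psma7 (alpha4) at 99.8 ± 7.80 FPKM in TMAO and 98.4 ± 1.14 FPKM in Control. Psma4 (alpha3) stood apart from its neighbours in the order, at 82.2 ± 6.99 FPKM in TMAO and 89.1 ± 2.29 FPKM in Control. Psma3 (alpha7) and Psma2 (alpha2) overlapped with each other, and Psma2 with Psma1. Psma3 averaged 67.1 ± 4.44 FPKM in TMAO and 70.8 ± 3.58 FPKM in Control, and Psma2 averaged 68.2 ± 4.30 FPKM in TMAO and 68.2 ± 2.29 FPKM in Control. Psma8, the testis form of alpha4, was below the filter at 0.279 ± 0.0675 FPKM in TMAO and 0.337 ± 0.161 FPKM in Control. The processed pseudogene Psma5-ps, outside the members, was listed at 8.62 to 10.7 FPKM in TMAO and 9.27 to 11.5 FPKM in Control, and reads could be shared between it and Psma5.

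The beta ring carries the proteolytic sites, and 6 of its 7 genes had a log2 fold change above 0, with a median of 0.05 that was 0.092 without TMAO replicate 1 and 0.017 without TMAO replicate 2. The summed level was 708, 766 and 742 FPKM in TMAO and 717, 686 and 731 FPKM in Control, which overlapped. The ratio of the beta to the alpha sum does not depend on library scaling and was chosen after the values were seen. It was 1.13, 1.09 and 1.08 in TMAO against 1.02, 1.03 and 1.05 in Control, with no overlap. The ATPase to alpha ratio, formed in the same way, overlapped at 0.774, 0.700 and 0.730 in TMAO and 0.683, 0.718 and 0.699 in Control. A ratio of sums is carried by the most abundant members, here Psmb4 at 205 ± 10.2 FPKM in TMAO and 193 ± 8.84 FPKM in Control and Psmb2 at 181 ± 5.53 FPKM in TMAO and 184 ± 6.18 FPKM in Control. The other structural subunit genes, Psmb3 and Psmb1, averaged 96.4 ± 5.06 and 81.9 ± 4.17 FPKM in TMAO and 92.9 ± 3.34 and 80.5 ± 3.78 FPKM in Control.

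Psmb5 holds the chymotrypsin-like site, the main target of proteasome inhibitor drugs, and had the largest positive log2 fold change among the members. It stood at 47.9, 49.0 and 48.8 FPKM in TMAO and at 38.0, 43.0 and 45.0 FPKM in Control, with no overlap, the lowest value being Control 1. The log2 fold change was 0.21 ± 0.060 (SE, 95% interval 0.07 to 0.34, limma adjusted p = 0.198; ENSMUSG00000022193, chromosome 14, 54614119 to 54618022, minus strand). The microRNA gene Mir686 on the same strand covers 12.1% of the exon bases of Psmb5. The share of Psmb5 reads that this affects is not known.

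Psmb6 holds the caspase-like site. Its level was 79.2, 81.4 and 79.4 FPKM in TMAO and 72.3, 73.5 and 75.7 FPKM in Control, again without overlap. The difference on the log2 scale was 0.11 ± 0.041 (limma adjusted p = 0.278; ENSMUSG00000018286, chromosome 11, 70525367 to 70527858, plus strand). Psmb7, with the trypsin-like site, overlapped between the groups at 43.1, 49.7 and 46.7 FPKM in TMAO and 47.5, 43.5 and 46.7 FPKM in Control. Its log2 fold change of 0.02 ± 0.059 had an interval of -0.11 to 0.15 (limma adjusted p = 0.936; ENSMUSG00000026750, chromosome 2, 38588036 to 38644087, minus strand), and its sign turned when Control replicate 2 or TMAO replicate 2 was left out and with median-ratio scaling. Exons of Nek6 on the opposite strand cover 11.8% of Psmb7. Ratios between catalytic subunit genes, also formed after the values were seen, overlapped between the groups. Psmb5 to Psmb7 was 1.11, 0.987 and 1.05 in TMAO and 0.800, 0.990 and 0.963 in Control, and Psmb6 to Psmb7 was 1.84, 1.64 and 1.70 in TMAO and 1.52, 1.69 and 1.62 in Control.

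The ATPase ring of the cap unfolds substrates, and none of its genes passed the test. Of 6 members 5 had a log2 fold change above 0, and the median of 0.052 was 0.080 without Control replicate 3 and 0.013 with median-ratio scaling. Psmc6, which codes for Rpt4, had the smallest p of all members. It stood at 78.2, 76.5 and 80.3 FPKM in TMAO and at 93.1, 84.9 and 90.6 FPKM in Control, so the groups did not overlap. Its log2 fold change was -0.19 ± 0.047 (95% interval -0.29 to -0.09, limma adjusted p = 0.143; ENSMUSG00000021832, chromosome 14, 45329788 to 45349705, plus strand). Over the main and 16 alternative settings the limma or voom adjusted p of Psmc6 ranged from 0.0541, with voom, to 0.432.

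Psmc1, which codes for Rpt2, lay on the other side, likewise short of the threshold. Its level was 104, 98.8 and 106 FPKM in TMAO and 91.1, 92.5 and 92.2 FPKM in Control. The difference on the log2 scale was 0.16 ± 0.043 (limma adjusted p = 0.164; ENSMUSG00000021178, chromosome 12, 100110154 to 100123405, plus strand). Rpt2 and Rpt4 occur in equal number in each cap. Their RNA ratio, chosen after the values were seen, was 1.33, 1.29 and 1.32 in TMAO and 0.978, 1.09 and 1.02 in Control. Psmc1 lay entirely above Control and Psmc6 entirely below, so this ratio could not overlap and adds nothing to the values of each gene. Psmc2 and Psmc3 (Rpt1 and Rpt5) also had their TMAO values entirely above those of Control, with means of 41.3 ± 0.700 and 92.7 ± 1.57 FPKM in TMAO and 38.5 ± 0.712 and 89.3 ± 0.845 FPKM in Control (limma adjusted p = 0.367 and 0.619). Psmc4 was the highest of the ring, at 108 ± 6.24 FPKM in TMAO and 104 ± 0.824 FPKM in Control, and Psmc2 the lowest. Psmc5 (Rpt6) averaged 71.5 ± 0.888 FPKM in TMAO and 69.3 ± 5.32 FPKM in Control.

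**Figure D2:**
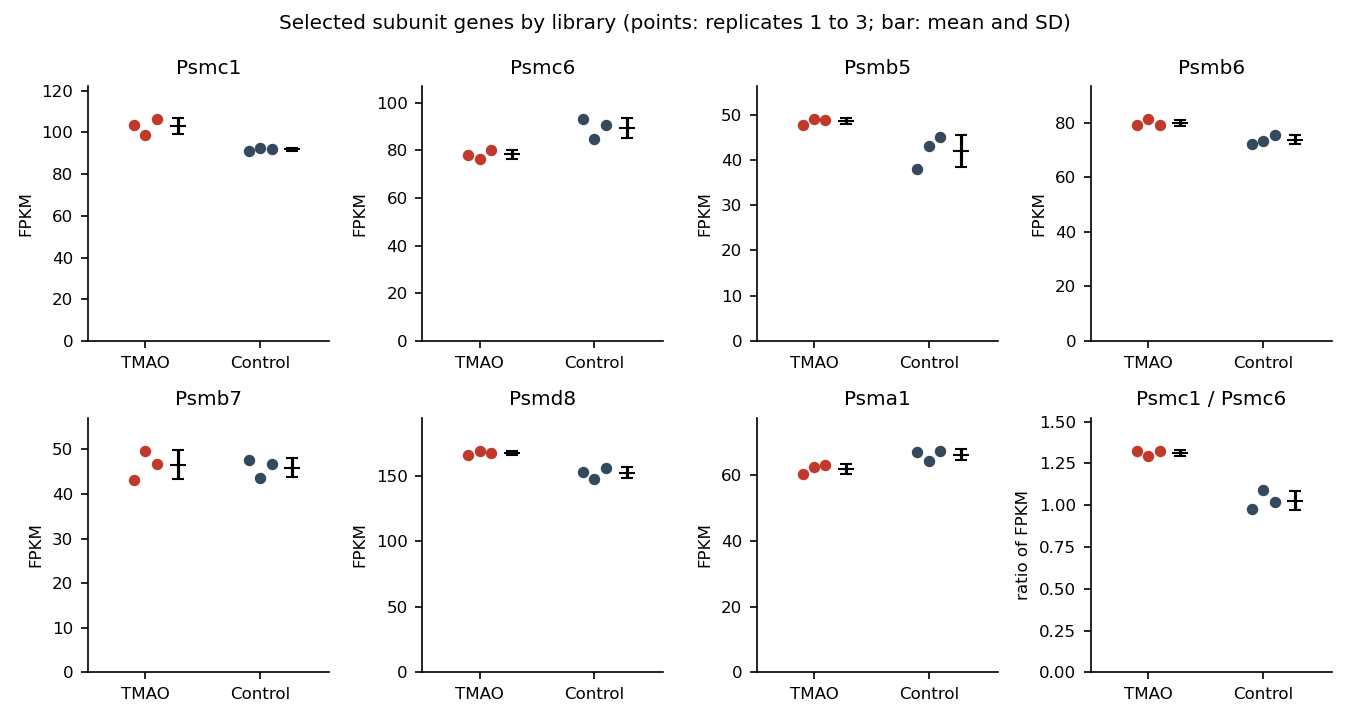
FPKM of 7 subunit genes and the ratio of Psmc1 to Psmc6 in each library, with 3 TMAO libraries left of 3 Control libraries and the mean and SD beside each group. Psmc1, Psmb5, Psmb6 and Psmd8 lie higher in every TMAO library, Psmc6 and Psma1 lie lower, Psmb7 overlaps, and the ratio lies between 1.29 and 1.33 in TMAO and between 0.978 and 1.09 in Control. The separation of the ratio follows from that of Psmc1 and Psmc6 and is no separate result. None of the 7 genes passed the test.

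The non-ATPase subunits form the scaffold, the lid and the ubiquitin receptors of the cap. Of 11 members 8 had a log2 fold change above 0, with a median of 0.018 that was -0.002 without Control replicate 1 (5 of 11 above 0), 0.045 without Control replicate 3 and -0.021 with median-ratio scaling. Psmd8, which codes for the lid subunit Rpn12, had the smallest p and the highest level. It stood at 166, 169 and 168 FPKM in TMAO and at 153, 148 and 156 FPKM in Control. The groups did not overlap, and their log2 values differed by 0.14 ± 0.041 (limma adjusted p = 0.207; ENSMUSG00000030591, chromosome 7, 29174188 to 29180701, minus strand).

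Psmd4, the ubiquitin receptor Rpn10, averaged 75.5 ± 1.30 FPKM in TMAO and 69.2 ± 0.856 FPKM in Control (limma adjusted p = 0.233). Psmd7, a partner of the deubiquitinase in the lid, averaged 90.8 ± 3.03 FPKM in TMAO and 83.2 ± 3.32 FPKM in Control (limma adjusted p = 0.298). Both had no overlap between groups. Psmd14, the deubiquitinase itself, overlapped at 78.3 ± 4.21 FPKM in TMAO and 80.0 ± 2.39 FPKM in Control. The scaffold genes Psmd1 and Psmd2 averaged 30.2 ± 0.588 and 41.7 ± 1.16 FPKM in TMAO and 29.9 ± 0.999 and 41.2 ± 1.39 FPKM in Control. Their log2 fold changes were 0.01 and 0.02, with intervals of -0.09 to 0.12 for each. The lid genes Psmd6 and Psmd12 averaged 82.6 ± 3.39 and 47.8 ± 1.40 FPKM in TMAO and 85.8 ± 3.28 and 47.0 ± 1.53 FPKM in Control, and Psmd13 and Psmd11 averaged 27.4 ± 0.329 and 16.4 ± 0.894 FPKM in TMAO and 27.2 ± 2.52 and 16.1 ± 0.752 FPKM in Control. Psmd3 (Rpn3) was the lowest of this class, at 9.05 ± 0.686 FPKM in TMAO and 9.52 ± 0.765 FPKM in Control. Subunits that occur in equal number in the particle thus differed in RNA level by 4.39 times across the core and 17.2 times across the cap, as the highest over the lowest mean FPKM. These levels divide by the length of all annotated exons, 1204 bases for Psmb2 and 7265 for Psmd1, so a gene with long, little-used exons is placed lower.

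**Figure D3:**
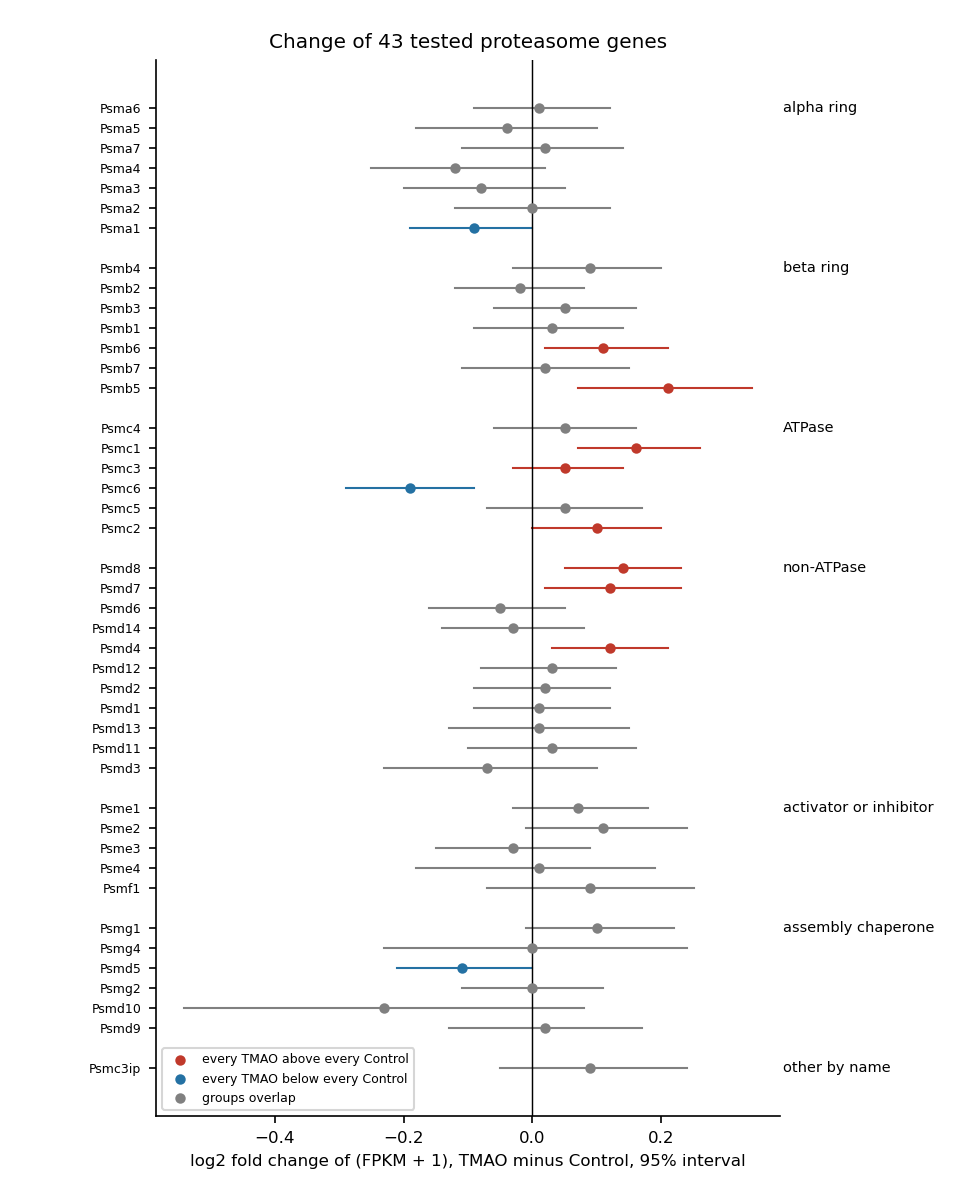
Log2 fold change of (FPKM + 1), TMAO minus Control, with its limma 95% interval for the 43 tested members grouped by role. Red marks genes with every TMAO library above every Control library, blue those with every TMAO library below, and grey those whose groups overlap. Overlap was judged on FPKM as deposited, without further scaling. The values run from -0.23 for Psmd10 to 0.21 for Psmb5, and no gene passed the adjusted threshold.

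Alternative caps and the inhibitor gave no call in 5 tested members, and in each the groups overlapped. Psme1 and Psme2 code for the alpha and beta chains of PA28, which interferon is known to induce and which favours peptides for antigen presentation. Psme1 stood at 29.4, 30.0 and 29.4 FPKM in TMAO and 27.2, 27.5 and 29.5 FPKM in Control, or 0.07 ± 0.049 higher in log2 terms (limma adjusted p = 0.566; ENSMUSG00000022216, chromosome 14, 55578123 to 55581529, plus strand). Psme2, its neighbour, stood at 25.4, 27.3 and 27.8 FPKM in TMAO and 26.3, 23.6 and 24.4 FPKM in Control, with 0.11 ± 0.057 (limma adjusted p = 0.441; ENSMUSG00000079197, chromosome 14, 55587441 to 55591113, minus strand). The pair held near-equal levels, with a ratio of Psme1 to Psme2 of 1.10 ± 0.0507 in TMAO and 1.14 ± 0.0924 in Control.

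Psme3, the nuclear PA28 gamma chain, had a log2 fold change of -0.03 (95% interval -0.15 to 0.09, limma adjusted p = 0.88; ENSMUSG00000078652, chromosome 11, 101316213 to 101323537, plus strand), at 24.8 ± 1.18 FPKM in TMAO and 25.3 ± 1.23 FPKM in Control. Psme4, which codes for PA200, had 0.01 (interval -0.18 to 0.19, limma adjusted p = 0.98; ENSMUSG00000040850, chromosome 11, 30771726 to 30880361, plus strand), at 7.92 ± 1.05 FPKM in TMAO and 7.84 ± 0.241 FPKM in Control. Psmf1, which codes for PI31, a protein first described as an inhibitor of the core particle, had 0.09 (interval -0.07 to 0.25, limma adjusted p = 0.659; ENSMUSG00000032869, chromosome 2, 151715812 to 151744186, minus strand), at 5.53 ± 0.491 FPKM in TMAO and 5.12 ± 0.118 FPKM in Control. Psme2b, a single-exon copy of Psme2, was below the filter with a mean of 0.228 FPKM in TMAO and 0.256 FPKM in Control.

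Assembly chaperones bring the rings and the cap base together and leave the finished particle. Of 6 tested members 4 had a log2 fold change above 0, with a median of 0.001. When a library was left out, the median ranged from -0.033 without Control replicate 2 to 0.023 without Control replicate 3. It was -0.037 with median-ratio scaling and -0.052 with GC and length trends removed, each with 1 of 6 above 0. Psmd5, a chaperone of the base, had the smallest p and stood at 24.3, 24.7 and 24.3 FPKM in TMAO and at 27.2, 25.5 and 26.5 FPKM in Control, with no overlap. Its log2 fold change was -0.11 ± 0.047 (limma adjusted p = 0.374; ENSMUSG00000026869, chromosome 2, 34849734 to 34874968, minus strand). Psmd10, which codes for gankyrin, a base chaperone also known as an oncoprotein, had the lowest log2 fold change of the members and the widest interval. It stood at 9.60, 10.4 and 13.4 FPKM in TMAO and 12.6, 15.1 and 11.8 FPKM in Control, which overlapped, at -0.23 with an interval of -0.54 to 0.08 (limma adjusted p = 0.527). Psmg1 and Psmg2, which code for a chaperone pair of the alpha ring, stood at 30.0 ± 1.45 and 22.2 ± 0.376 FPKM in TMAO and 27.8 ± 0.818 and 22.2 ± 0.677 FPKM in Control (limma adjusted p = 0.437 and 0.999). Psmg4 averaged 28.3 ± 3.79 FPKM in TMAO and 28.1 ± 2.23 FPKM in Control, with an interval of -0.23 to 0.24, and Psmg3, below the filter, averaged 1.02 ± 0.0755 FPKM in TMAO and 0.927 ± 0.0655 FPKM in Control. Psmd9, overlapped over 25.5% of its exon bases by Gm26745 on the opposite strand, was the lowest tested chaperone at 8.0 ± 0.186 FPKM in TMAO and 7.87 ± 0.606 FPKM in Control. Psmc3ip, overlapped over 21.2% by Mlx on the opposite strand, had 0.09 ± 0.064 (limma adjusted p = 0.584; ENSMUSG00000019303, chromosome 11, 101091823 to 101095436, minus strand), at 6.71 ± 0.152 FPKM in TMAO and 6.23 ± 0.342 FPKM in Control.

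Under interferon the standard catalytic subunits are replaced by Psmb8, Psmb9 and Psmb10 in newly made particles, and these 3 genes were set beside their counterparts Psmb5, Psmb6 and Psmb7. Psmb8 and Psmb9 were close to absent. Psmb8 held 15, 16 and 13 reads in TMAO and 10, 10 and 2 reads in Control, and Psmb9 held 14, 12 and 6 reads in TMAO and 9, 7 and 3 reads in Control, so both were below the filter and not tested. The read counts of the groups did not overlap for Psmb8, where TMAO was higher, and overlapped for Psmb9. Exons of Gm20496 on the opposite strand cover 14.7% of Psmb8. Psmb10 was expressed, at 11.3, 12.7 and 12.4 FPKM in TMAO and 10.4, 11.0 and 11.2 FPKM in Control, with no overlap. Its log2 fold change was 0.14 ± 0.064 (limma adjusted p = 0.369; ENSMUSG00000031897, chromosome 8, 105935735 to 105938444, minus strand).

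**Figure D4:**
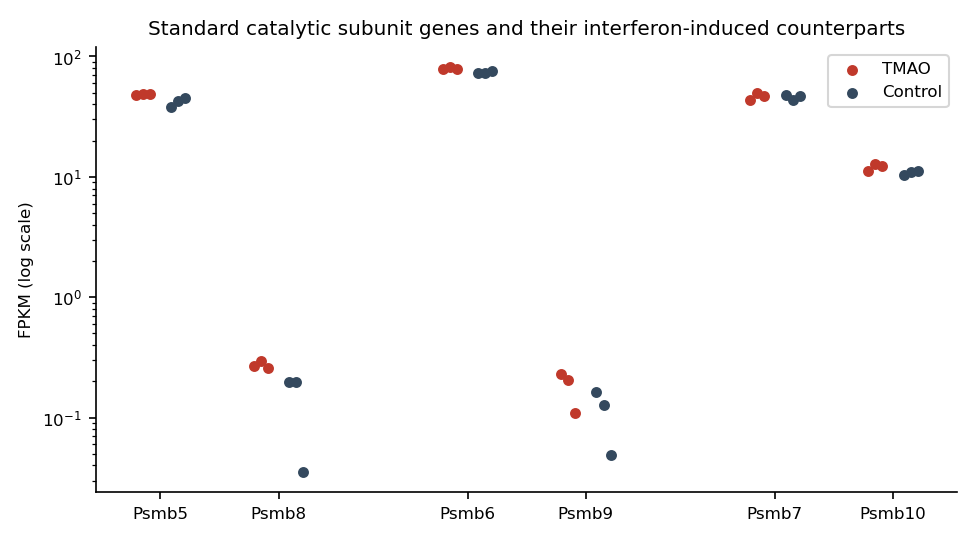
FPKM on a log axis of the standard catalytic subunit genes Psmb5, Psmb6 and Psmb7, each beside its interferon-induced counterpart Psmb8, Psmb9 or Psmb10, with 3 TMAO libraries in red left of 3 Control libraries in dark blue. Psmb8 and Psmb9 stay below 0.3 FPKM in every library, while Psmb10 lies between 10.4 and 12.7 FPKM.

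Genes around the particle gave no call with limma in any of 5 further lists, where 8 of 59 distinct tested genes (13.6%) had an unadjusted p under 0.05, beside 13.1% of all tested genes, and voom on recovered reads called 1 gene. Among proteasome-associated proteins, 0 of 12 tested genes passed, 4 had a log2 fold change above 0 and the median was -0.02. Pomp, a maturation factor of the core, stood at 42.4 ± 2.04 FPKM in TMAO and 41.3 ± 1.32 FPKM in Control. Sem1, a small lid subunit, was at 59.0 ± 4.70 FPKM in TMAO and 59.0 ± 1.62 FPKM in Control. The receptor gene Adrm1 was at 13.1 ± 0.226 FPKM in TMAO and 13.6 ± 0.868 FPKM in Control, and the deubiquitinase gene Usp14 at 17.5 ± 0.566 FPKM in TMAO and 18.1 ± 0.201 FPKM in Control (limma adjusted p = 0.809, 0.984, 0.77 and 0.743 in the order named). Uchl5, the deubiquitinase bound by Adrm1, had the smallest p of the list, at 11.5 ± 0.446 FPKM in TMAO and 12.8 ± 0.379 FPKM in Control (-0.14 on the log2 scale, limma adjusted p = 0.338).

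Of 10 ubiquitin and ubiquitin-loading enzyme genes 0 passed, with 5 above 0. The ubiquitin gene Ubb was at 636 ± 18.6 FPKM in TMAO and 626 ± 31.9 FPKM in Control, and Uba6, an activating enzyme with the smallest p of the list, had 0.11 (limma adjusted p = 0.59). Of 14 tested shuttle and p97 genes 0 passed and 8 were above 0, with a median of 0.03. Nsfl1c, a cofactor of p97, had the smallest p, with 0.17 (limma adjusted p = 0.306), and Vcp, which codes for p97 itself, had 0.05. Of 11 tested genes of class I antigen processing 0 passed and 7 were above 0. Tapbp, which codes for tapasin, had the smallest p, with -0.26 (limma adjusted p = 0.26).

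A list of NFE2L1, its relative NFE2L2, their partners, processing factors and repressor, and known targets also gave no call, with 0 of 14 genes past the threshold, 6 above 0 and a median of -0.01. In this list 3 of 14 genes had an unadjusted p under 0.05, namely Nfe2l1, Mafg and Hmox1, beside 13.1% of all tested genes. Nfe2l1 stood at 25.9 ± 0.773 FPKM in TMAO and 29.2 ± 1.97 FPKM in Control, a difference of -0.17 ± 0.057 on the log2 scale (limma adjusted p = 0.254). Mafg, a small Maf partner, had the smallest p, at 8.12 ± 0.977 FPKM in TMAO and 6.14 ± 0.341 FPKM in Control. On the log2 scale this was a difference of 0.35 ± 0.083 (limma adjusted p = 0.134), and Mafg was the gene called by voom on recovered reads (0.40, adjusted p = 0.0294). Hmox1, a target that codes for heme oxygenase, had levels of 139, 126 and 129 FPKM in TMAO and 119.7, 118 and 115 FPKM in Control, without overlap (0.15 ± 0.047 on the log2 scale, limma adjusted p = 0.21). The targets Gclc and Gclm did not share this rise. Their log2 fold changes were -0.01 and -0.06, with overlapping groups (limma adjusted p = 0.967 and 0.739).

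A feature the choice of members did not use was the base composition of their transcripts. Across the 43 tested members, the log2 fold change and the GC content of the longest annotated transcript had a Pearson r of 0.53, as a description of genes that share the same 6 libraries. The same r was 0.05 over 11058 tested genes and 0.10 over 5563 other genes in the level range of the members. Among the 15 members of lowest GC content (37.0% to 47.1%) 6 had a log2 fold change above 0 and the median was -0.03, and among the 14 of highest GC content (51.6% to 57.4%) 13 were above 0 and the median was 0.06. Psmc6 had the lowest GC content of all. When trends with GC content and exon length over all genes were removed from each library, an alternative added after seeing the data, the log2 fold change was -0.166 for Psmc6, 0.150 for Psmc1 and 0.166 for Psmb5, and 0 of 43 members passed.

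**Figure D5:**
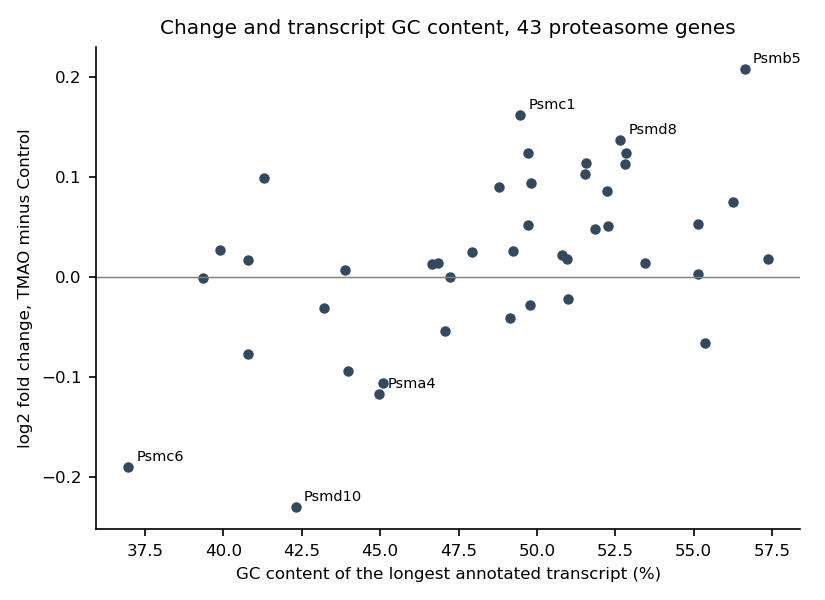
Log2 fold change, TMAO minus Control, of the 43 tested members against the GC content of their longest annotated transcript in percent, one point per gene with 6 named. Psmc6 sits at the lowest GC content (37.0%) with -0.19, and Psmb5 lies toward the upper end with 0.21.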

How the data were processed

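For each of 3 TMAO and 3 Control samples the authors deposited a table with an FPKM value per gene. Per the labels' protocols, Trizol RNA went into a stranded mRNA kit. The submitters' processing notes name Trimmomatic, HISAT2, Cufflinks, HTSeq and mm10. Which annotation and which strand setting were used for counting is not given in the sources used here. Control 1 has the unit in its header as PKM, per the file headers.

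Exon lengths from GENCODE M21 turned the values of 25499 genes (98.5% of 25885 annotated) into whole reads within 0.01 reads. This gave the library totals. Groups came from the sample titles. The 11062 genes reaching 1 FPKM in 3 or more libraries were fitted with limma 3.58.1 in R 4.3.3 (trended, robust) on log2(FPKM + 1), two-sided, with Benjamini-Hochberg adjustment over all of them and a threshold of 0.05. Fold changes on this scale understate those of low genes. GC content came from the longest M21 transcript, and promoters from RefSeq. The fit was checked on simulated data with known changes, all larger than those estimated for the members. That check does not measure the power to find changes as small as theirs. No library repeated another in a chi-square comparison of reads, and the values gave no sign that shared replicate numbers pair the samples. Alternatives changed the scaling, filter, pseudocount, variance model, replicate block or tool (voom on recovered reads), or left out a library. Python 3.11.15, pandas 2.3.3, scipy 1.17.1 and matplotlib 3.10.9 were used.

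Members and lists were chosen with earlier results of these data known. Full statistics were given for members past the threshold, the smallest p of each class, the catalytic subunits and their counterparts, and the activators and inhibitor. Further values went to the highest and lowest members and to those whose groups did not overlap. Intervals of Psmd10, Psmd1, Psmd2 and Psmg4 and the ratios were added after their values were seen. So were Ubb, Vcp, Hmox1, Gclc and Gclm from the lists.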

Additional observations from a re-analysis of the deposited data

How the results depend on the processing

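All 16 alternatives called 0 of the proteasome genes, the smallest adjusted p being 0.0541 for Psmc6 with voom. With so few genes called over the whole table, 0.181% in the main fit, a count of 0 does not set the members apart. For the single genes given full statistics, 230 alternative log2 fold changes kept their direction and 10 turned, each of these with an adjusted p (limma) of 0.704 or more. Psme4 turned under quantile normalization (-0.014), median-ratio scaling (-0.029) and removal of GC and length trends (-0.018), and Psmb7 under median-ratio scaling (-0.022). With a library left out, Psme4 ranged from -0.085 to 0.078, Psmb7 from -0.030 to 0.069 and Psme3 from -0.056 to 0.010. The median log2 fold change of the members was -0.021 with median-ratio scaling, beside -0.009 for all genes, and 0.013 to 0.049 when a library was left out. Genes called over the whole table numbered 20. They numbered 0 with no filter (1999 at an unadjusted p under 0.05), 57 with a filter of 5 FPKM, 97 with voom, 47 with GC and length trends removed, a choice made after seeing the data, and 11 to 56 when a library was left out (11 without Control replicate 3, 12 without TMAO replicate 1, 56 without TMAO replicate 2). Quantile normalization called 25 genes, median-ratio scaling 27. The pathway lists had 1 call with voom, and the longer promoter motif 0% of members. The cause of these shifts was not tested. Same-numbered samples deviated with correlations of -0.086, -0.104 and 0.056, so the values gave no sign of pairing by number. Correlations among so few libraries cannot exclude that same-numbered samples shared an origin. With the replicate block 0 members and 22 of all genes were called, and not every library was most like the one of its own number. Psmb8 and Psmb9 had 2 to 16 reads a library, a depth that limits any comparison.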
